A study of Petromyzon marinus with 17 samples.

Results

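Non-methylated islands (NMIs) called in muscle and in PBMC, and not called in brain, sperm or either embryo stage, are described here as muscle/PBMC NMIs. They were 1647 of the 166793 merged NMIs of the sea lamprey (Petromyzon marinus), or 0.987%. Bases called in both replicates of a tissue made up that tissue's set, the 6 tissue sets were joined into merged NMIs wherever they overlapped or touched, and a merged NMI counted as present in a tissue from an overlap of 1 bp. The calls that chose these NMIs are given as a description, with no test. The name holds for calls shared by both replicates only, because 1020 of the 1647 (61.9%) carried a peak in 1 or more of the 8 libraries from the tissues counted as absent. The same share was not counted for other NMIs. For brain alone it was 55.3%, against 33.7% of all merged NMIs absent from brain. Among the other NMIs of muscle and PBMC absent from brain it was 65.9%.

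NMIs are stretches of CpG-rich DNA that stay free of cytosine methylation in a genome where other CpG sites are often methylated. In vertebrates they often coincide with promoters and other regulatory elements, and those found in some tissues only tend to lie away from the promoters of widely used genes. BioCAP isolates such DNA with the CxxC zinc finger of human KDM2B, a chromatin protein whose CxxC domain binds CpG sites only where they are unmethylated, so a peak reports unmethylated CpG-dense DNA and not the activity of a gene.

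BioCAP had been run with 2 replicates each on muscle, PBMC (peripheral blood mononuclear cells) and brain of adult lampreys, on sperm of adults, and on whole embryos of day 1 and day 2, which gave 12 libraries with a peak list each. No treatment or mutation was involved. The study calls its replicates biological and states that those of muscle and of brain include a male and a female fish, whereas those of PBMC come from males. Which muscle or brain replicate is which sex is not given in the sources used here, so replicate and sex cannot be told apart in these tissues. Each p-value below rests on 2 libraries per tissue. Muscle and PBMC are mixtures of cell types, and the embryo stages are whole embryos. DNA that is unmethylated in few cells and DNA that is less enriched in all cells cannot be told apart in such bulk libraries. The labels give 34 to 307 M read pairs per sample over the series, and the peak lists themselves hold no read counts. The lists held 89979 to 141921 peaks, with the fewest in the 2 libraries of day 2.

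Most NMIs shared by muscle and PBMC were also NMIs of brain. Of 90288 merged NMIs present in muscle and in PBMC, 86684 (96.0%) were present in brain and 3604 (3.99%) were not, and the muscle/PBMC NMIs were 45.7% of these 3604, the rest being present in sperm or an embryo stage. The other pairs of adult somatic tissues shared more NMIs that were confined to the pair by the same rule. There were 6611 NMIs of brain and muscle only and 3154 of brain and PBMC only, and 11188 were present in brain, muscle and PBMC only. None of the muscle/PBMC NMIs lay on the mitochondrial sequence.

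Muscle/PBMC NMIs were narrower than NMIs shared with brain and wider than those of muscle or of PBMC only. Their width was 348 bp in the median, from 226 to 1382 bp, and they covered 0.6323 Mb in all. NMIs of brain and muscle only had a median width of 402 bp, those of brain and PBMC only 383 bp, those of brain, muscle and PBMC only 527 bp, and all merged NMIs 506 bp. Those of muscle only had a median of 288 bp and those of PBMC only 285 bp. Width is that of the joined tissue sets, so the set of a further tissue can only widen an NMI. Peaks of the brain lists were also wider, with medians of 540 and 564 bp, against 432 to 496 bp in muscle and PBMC. There were 234 muscle/PBMC NMIs of 500 bp or more and 7 of 1000 bp or more.

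The calls of the 2 tissues mostly fell on the same bases. In the median, 303 bp of a muscle/PBMC NMI were in the muscle set, 299 bp in the PBMC set and 263 bp in both, which was 80.35% of its width. By the rule, a muscle/PBMC NMI with no base in both sets could arise only where the stretches exactly touched, and there was none. At least 50% of the width was in both sets at 1543 (93.7%). The muscle stretch was the wider one at 834 and the PBMC stretch at 802, with equal widths at 11. A single peak stood behind the call in each of the 4 libraries at 1639 of them. In 62 (3.76%), a peak of 1 or more of the 4 libraries also reached a further merged NMI, so that a value there is shared by neighbours.

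Summit positions, which the rule did not use, lay almost as close between tissues as within them. The peak summits of the 2 muscle libraries were 16 bp apart in the median and those of the 2 PBMC libraries 22 bp. Between a muscle and a PBMC library the median offset was 21, 25, 22 or 27 bp over the 4 possible pairs. Summits lay within 50 bp of each other at 86.7% of the muscle/PBMC NMIs for the muscle replicates and at 81.7% for the PBMC replicates, and at 73.6% to 81.1% for the pairs across tissues. The DNA had been sonicated to about 200 bp, and at most of these NMIs the offset was shorter than such a fragment. Their median width was 348 bp, with a median of 263 bp in both sets, so that short offsets were largely given by the overlap. Offsets at other classes of NMIs were not measured.

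Enrichment at muscle/PBMC NMIs was modest in all 4 libraries. The fold enrichment, which the peak caller gives at the summit over the local background, had a median of 6.92 in muscle replicate 1 and 6.16 in muscle replicate 2, against 6.56 in PBMC replicate 1 and 5.90 in PBMC replicate 2. The medians over all peaks of these libraries were 10.5 and 10.6 in muscle and 12.7 and 10.5 in PBMC. Every library thus had its muscle/PBMC NMIs in the lower part of its list. The range from the 5th to the 95th percentile of the fold enrichment was 3.70 to 18.1 and 3.59 to 15.8 in the muscle libraries, against 3.55 to 16.6 and 3.48 to 12.3 in the PBMC libraries.

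**Figure D1:**
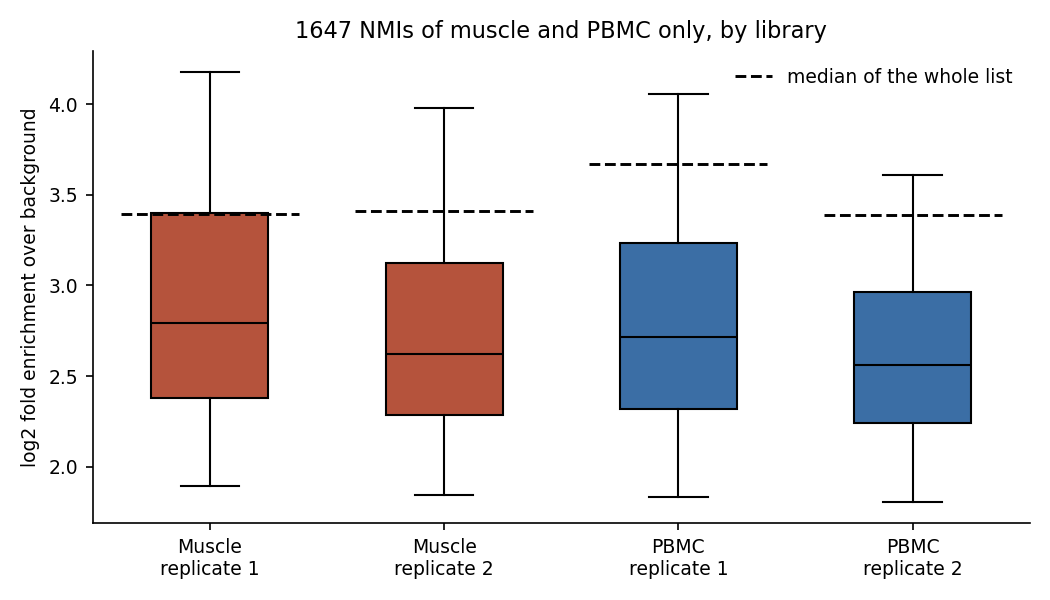
Log2 fold enrichment over the local background (vertical axis) of the 1647 muscle/PBMC NMIs in each muscle and PBMC library (horizontal axis); boxes give the quartiles and median, whiskers the 5th and 95th percentiles, and the dashed line the median over all peaks of that library. The median of the muscle/PBMC NMIs lies below the dashed line in all 4 libraries, by 6.92 against 10.5 fold in muscle replicate 1 and by 6.56 against 12.7 fold in PBMC replicate 1.

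To compare libraries without putting their lists on 1 scale, each NMI was given the share of the library's peaks that had a lower fold enrichment. This percentile had a median of 30.3 and 24.4 in the muscle libraries, against 23.2 and 23.9 in the PBMC libraries. Muscle replicate 1 stood above the other 3, which lay close together. The mean over libraries was 27.4 ± 4.17 in muscle and 23.6 ± 0.525 in PBMC (SD, n = 2 each). The difference of 3.80 percentile points had an exact permutation p of 0.333 (two-sided), the smallest that 2 against 2 libraries allow, so this design could not have passed 0.05. By the same measure, NMIs of brain and muscle only stood at 35.4 and 35.3 in the muscle libraries, those of brain and PBMC only at 27.0 and 29.7 in the PBMC libraries, and those of brain, muscle and PBMC only between 45.8 and 49.3 in all 4. NMIs of muscle only stood at 24.8 and 23.7 in the muscle libraries, and those of PBMC only at 19.6 and 22.9 in the PBMC libraries. The muscle/PBMC NMIs thus lay below the classes shared with brain and above the NMIs of muscle only or PBMC only. In replicate 2 the margin over the latter was small, at 24.4 against 23.7 in muscle and 23.9 against 22.9 in PBMC. The classes are made from calls, which depend on enrichment, so this order is not independent of the rule. Over all 32 patterns of presence that include the tissue, 7 to 13 had a lower median than the muscle/PBMC NMIs, depending on the library.

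A minority stood out from this low level. The fold enrichment was above the median of the whole list at 414 muscle/PBMC NMIs (25.1%) in muscle replicate 1 and at 252 (15.3%) in muscle replicate 2, against 170 (10.3%) in PBMC replicate 1 and 156 (9.47%) in PBMC replicate 2. The -log10 q of the peak had medians of 17.1 and 13.7 in muscle and of 15.2 and 13.4 in PBMC, and it reached 10 in all 4 libraries at 621 (37.7%). That share was low, since 76850 of the 90336 merged NMIs with a peak in all 4 libraries reached it. The strongest muscle/PBMC NMI by its lowest percentile in the 4 libraries was PIZI01000010v1 from 6449079 to 6449579 (petMar3, counted from 1, as all positions here). It had 24.2 and 21.7 fold enrichment in muscle, against 27.6 and 22.0 in PBMC, and a peak of 3.46 fold in brain replicate 2. Next came PIZI01000050v1 from 6729257 to 6729697, with 20.5 and 19.8 fold in muscle and 22.5 and 17.8 in PBMC. At both NMIs the values of the 2 tissues overlapped in deposited fold enrichment.

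The 3 that followed in this order were also strong in both tissues. PIZI01000061v1 from 4418732 to 4419104 had 15.6 and 15.3 fold in muscle and 18.2 and 15.0 in PBMC. PIZI01000470v1 from 46410 to 46817 had 25.4 and 14.1 fold in muscle and 19.6 and 14.6 in PBMC. PIZI01000027v1 from 11494920 to 11495347 had 16.3 and 15.8 fold in muscle and 21.3 and 14.0 in PBMC. All 5 were 373 to 501 bp wide, none differed between muscle and PBMC past the test described below, and 4 of the 5 carried a brain peak in 1 replicate, at 3.46 to 6.04 fold. Only PIZI01000027v1 had no peak in any of the 8 other libraries.

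Since absence required no more than that the replicates of a tissue share no base, the lists of the absent tissues were read for single calls. Brain held most of them. A brain peak overlapped 911 muscle/PBMC NMIs (55.3%), against 33.7% of all merged NMIs absent from brain. It came from brain replicate 1 only at 332 (20.2%), against 6.38% of the merged NMIs absent from brain, and from brain replicate 2 only at 574 (34.9%), against 27.3%. At the remaining 5 both replicates had a peak but no base in common. Against the nearest set the order was different. Of the 1957 other merged NMIs that were present in muscle and PBMC and absent from brain, 65.9% had a brain peak, 12.5% in replicate 1 only and 53.1% in replicate 2 only. Among NMIs of muscle and PBMC, a brain peak was thus less frequent at the muscle/PBMC NMIs, and a peak in brain replicate 1 only more frequent. The brain peaks ranked low in their lists, with a median fold enrichment of 4.23 for replicate 1 and 3.67 for replicate 2, at the 20.4 and 17.6 percentile. The medians over all peaks of the brain lists were 7.57 and 6.76 fold, lower than in muscle and PBMC. By percentile, the muscle/PBMC NMIs stood at 30.3 and 24.4 in muscle and at 23.2 and 23.9 in PBMC. The largest brain peaks at muscle/PBMC NMIs reached 22.2 fold in brain replicate 1 and 20.9 in brain replicate 2.

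Sperm and embryos held far fewer. A sperm peak overlapped 249 muscle/PBMC NMIs (15.1%), against 16.8% of the merged NMIs absent from sperm. It came from sperm replicate 1 only at 59 (3.58%, against 1.91%) and from sperm replicate 2 only at 190 (11.5%, against 14.8%). For day 1 the count was 121 (7.35%), against 27.8% of the merged NMIs absent from day 1, and for day 2 it was 43 (2.61%), against 19.4%. Among the other merged NMIs of muscle and PBMC absent from the same tissue, the shares were 15.2% for sperm, 35.7% for day 1 and 31.7% for day 2. The share of muscle/PBMC NMIs was close to both backgrounds in sperm and below both in the embryo stages, whereas in brain it was above the one and below the other. Both embryo backgrounds include NMIs present in sperm or the other embryo stage, which the rule kept out of the muscle/PBMC NMIs. By single library, muscle/PBMC NMIs had a peak at 3.04% and 4.31% in day 1 and 1.09% and 1.52% in day 2. The 3 classes of brain with muscle, PBMC or both only had 4.19% to 7.17% and 0.824% to 2.32%. The lists of the embryo libraries also had the lowest -log10 q, with medians of 12.2 to 13.5 over all peaks, against 36.3 to 48.1 in the muscle and PBMC lists, and the part of these weaker lists in the embryo shares was not tested.

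**Figure D2:**
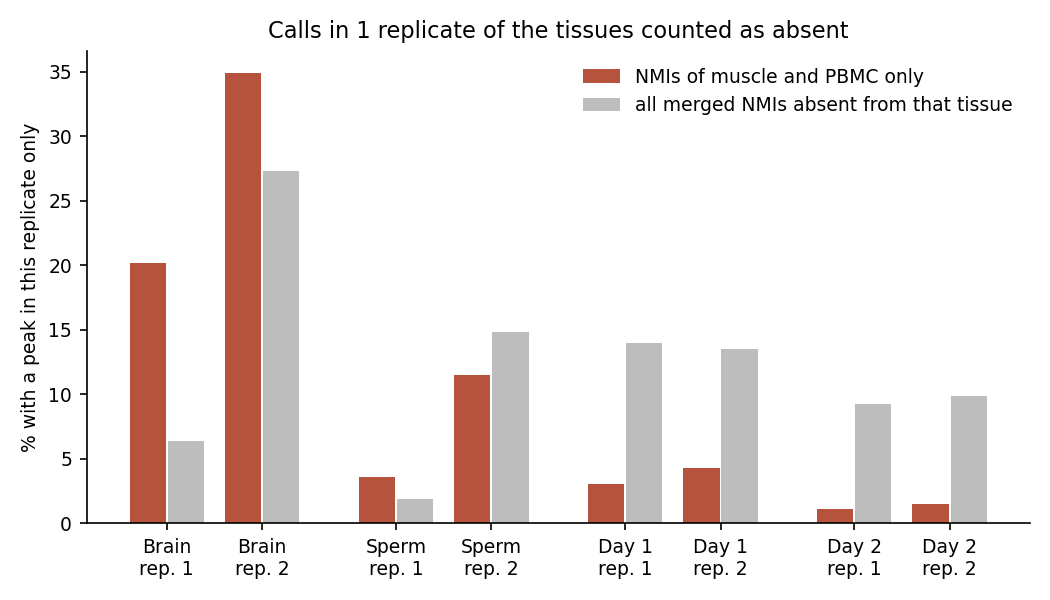
Percentage of NMIs (vertical axis) that overlapped a peak in replicate 1 only or in replicate 2 only of each tissue counted as absent (horizontal axis), for the 1647 muscle/PBMC NMIs (red) and for all merged NMIs absent from that tissue (grey). In brain replicate 1 the share was 20.2% against 6.38%, and in both replicates of day 1 and day 2 the red bars lie below the grey ones. The grey sets of day 1 and day 2 include NMIs present in sperm or the other embryo stage.

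Counted over the 8 other libraries, 627 muscle/PBMC NMIs (38.1%) had no peak in any of them, 782 (47.5%) had a peak in 1, 174 (10.6%) in 2, 57 in 3 and 7 in 4. A brain peak without any sperm or embryo peak was found at 701 and a sperm or embryo peak without a brain peak at 109. The 627 with no other peak had a width and strength close to those of the rest. Their median width was 354 bp, against 343 bp for the 1020 others. Their median fold enrichment was 6.91 and 6.42 in muscle and 6.38 and 5.77 in PBMC, against 6.93 and 6.07 in muscle and 6.72 and 5.94 in PBMC for the others.

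The kind of brain call went with the mean strength over the 4 libraries, most clearly in replicate 1 of muscle and of PBMC. The muscle/PBMC NMIs were put into 4 groups of 411 or 412 by the mean of their 4 percentiles. Width was larger in each next group, with medians of 300, 322.5, 356.5 and 412 bp from the weakest to the strongest. A brain call of any kind was about as frequent in each, at 53.9%, 51.2%, 56.6% and 59.6%. A call in brain replicate 1 only, however, was found at 7.77% of the weakest group, 15.8% and 24.8% of the next, and 32.4% of the strongest. A call in brain replicate 2 only ran the other way, at 46.1%, 35.0%, 31.8% and 26.5%. In muscle replicate 1, NMIs with brain replicate 1 only, brain replicate 2 only and no brain call had median folds of 10.4, 5.82 and 6.82. In muscle replicate 2 these were 6.12, 6.07 and 6.28, with no such order. They were 8.36, 6.04 and 6.29 in PBMC replicate 1, and 6.29, 5.88 and 5.69 in PBMC replicate 2.

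The same split appeared between the replicates of muscle. After quantile normalization of the 4 muscle and PBMC libraries, the 332 muscle/PBMC NMIs with a call in brain replicate 1 only were higher in muscle replicate 1 than in muscle replicate 2 at 280 (84.3%), with a median difference of 0.59 on the log2 scale. At 91 of them (27.4%) the difference was at least 1, and at 1 it was at least 1 in the other direction. Over all 90336 merged NMIs with a peak in the 4 libraries, 40.7% were higher in muscle replicate 1, with a median of -0.05 and a difference of at least 1 at 2.51%. The deposited values showed the same, with a median fold enrichment of 10.4 in muscle replicate 1 and 6.12 in muscle replicate 2, against 8.36 in PBMC replicate 1 and 6.29 in PBMC replicate 2.

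PBMC replicates differed less in the same group, with a median of 0.19 and 220 (66.3%) higher in PBMC replicate 1. Over all merged NMIs tested, 47.3% were higher in PBMC replicate 1, with a median of -0.02. A difference of at least 1 towards PBMC replicate 1 was found at 9.64% of the group, against 1.04% of all those tested. The 574 with a call in brain replicate 2 only had medians of -0.07 in muscle and -0.03 in PBMC, and the 736 with no brain call 0.05 in muscle and 0.06 in PBMC. The pattern was not particular to the muscle/PBMC NMIs. Among the other merged NMIs of muscle and PBMC that were absent from brain, 245 had a call in brain replicate 1 only, and the muscle replicates differed there by 0.41 in the median, with 77.1% higher in replicate 1. A call in the sperm replicate of the same number was more frequent than at the NMIs with no brain call, where sperm replicate 1 only stood at 2.31% and sperm replicate 2 only at 7.88%. The sperm replicate of the other number was close to or below these shares. Sperm replicate 1 only was called at 9.64% of the muscle/PBMC NMIs with a call in brain replicate 1 only and at 1.74% of those with a call in brain replicate 2 only, and sperm replicate 2 only at 7.83% and 18.5%. The replicates of muscle and of brain each include a male and a female fish, the sources used here do not link sex to replicate number, and the part of sex in these differences was not tested.

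**Figure D3:**
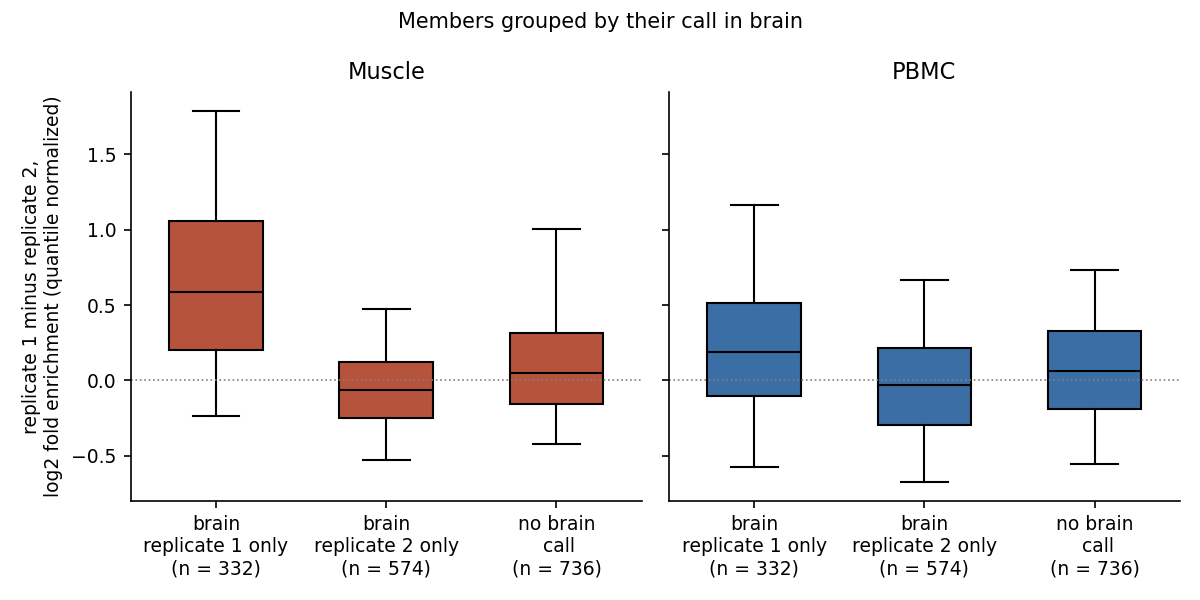
Difference between replicate 1 and replicate 2 in quantile-normalized log2 fold enrichment (vertical axis) for muscle (left) and PBMC (right), with the muscle/PBMC NMIs grouped by their brain call (horizontal axis); boxes give the quartiles and median, whiskers the 5th and 95th percentiles, and the dotted line no difference. The 332 with a call in brain replicate 1 only sit at a median of 0.59 in muscle and 0.19 in PBMC, and the other 2 groups near 0 in both.

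Because the rule needed a call in both tissues and not its size, muscle and PBMC were compared at the muscle/PBMC NMIs. The series lists an input sample for muscle and none for PBMC, and fold enrichment is relative to a background. A difference of tissue and one of background control cannot be told apart here. Fold enrichment was tested on the log2 scale with limma over the 90336 merged NMIs with a peak in all 4 libraries, after quantile normalization, with Benjamini-Hochberg adjustment over all of them. The variance of each NMI was drawn towards a value common to all those tested, so a p-value or SE does not rest on that NMI's own spread alone. At an adjusted p of 0.05, 202 muscle/PBMC NMIs (12.3%) were higher in muscle, against 9.6% of all those tested, and 178 (10.8%) were higher in PBMC, against 8.63%. Both shares were a little above those over all merged NMIs tested, and 1267 (76.9%) did not pass. The median difference, muscle minus PBMC, was 0.02 over the muscle/PBMC NMIs and -0.02 over all merged NMIs tested. The number of calls depended on single libraries, over all merged NMIs tested as well as at the muscle/PBMC NMIs. With 1 library left in a tissue, that library is assumed to vary like those of the other tissue, so no counts are given for these fits. The median difference was 0.07 without PBMC replicate 1 and 0.01 without PBMC replicate 2. Without muscle replicate 1 it was -0.05, so that it changed sign, and without muscle replicate 2 it was 0.11. Each of these 4 fits had fewer calls over all merged NMIs tested, and the one without PBMC replicate 2 had none. A call lost in such a fit therefore cannot show whether a single NMI depends on 1 library.

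Among the differences that passed, the median was 1.14 on the log2 scale for those higher in muscle and -1.02 for those higher in PBMC, and the smallest were 0.60 and 0.56 in size. Those that passed were wider, with medians of 424.5 bp where muscle was higher and 392 bp where PBMC was higher, against 330 bp for the rest. A brain peak in 1 or both replicates was found at 90 (44.6%) of those higher in muscle and at 98 (55.1%) of those higher in PBMC, against 57.1% of the rest.

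**Figure D4:**
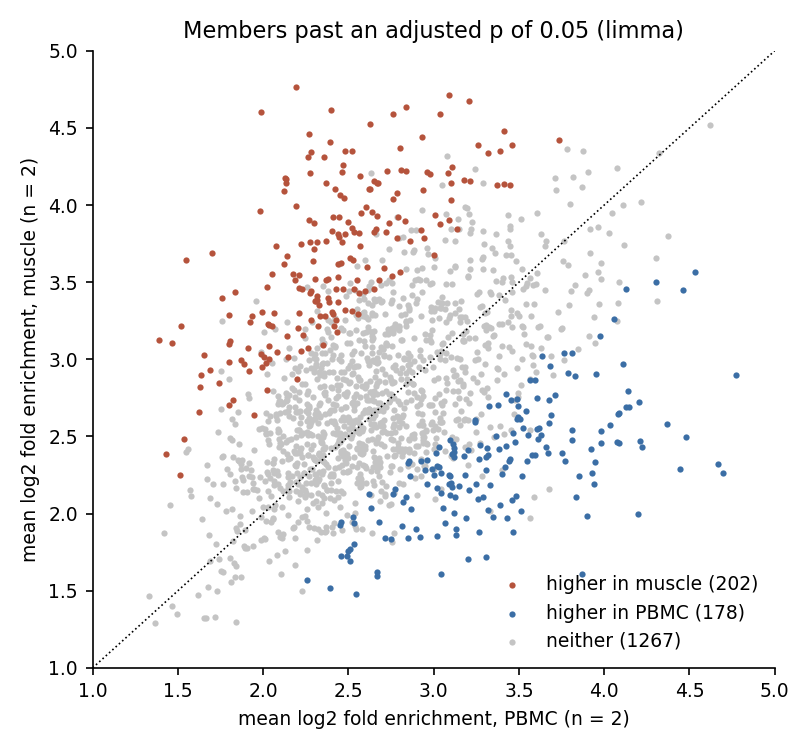
Mean log2 fold enrichment as deposited in muscle (vertical axis) and in PBMC (horizontal axis) over the 2 libraries of each, for the 1647 muscle/PBMC NMIs; red points passed an adjusted p of 0.05 in limma with higher values in muscle (202), blue points with higher values in PBMC (178), grey points did not pass (1267), and the dotted line marks equal values. Points that passed lie on both sides of the line in similar numbers.

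The largest difference towards muscle was at PIZI01000029v1 from 10091449 to 10091949. It had 24.3 and 24.4 fold enrichment in muscle, against 4.02 and 3.92 in PBMC (log2 difference 2.67, SE 0.14, limma adjusted p = 0.00577). The muscle set covered all 501 bp of it and the PBMC set 272 bp, and brain replicate 2 had a peak of 3.38 fold there. PIZI01000193v1 from 243922 to 244466 had 29.0 and 25.5 fold in muscle, against 5.93 and 3.54 in PBMC, and 3.50 in brain replicate 1 (log2 difference 2.65, SE 0.28, limma adjusted p = 0.00697). The tissues did not overlap at either NMI. The PBMC peaks stood at the 4.909 and 6.455 percentile of their lists at PIZI01000029v1, and at the 19 and 3.951 percentile at PIZI01000193v1.

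PIZI01000013v1 from 8949923 to 8950367 had 24.1 and 24.9 fold in muscle, against 6.44 and 4.30 in PBMC (log2 difference 2.28, SE 0.22, limma adjusted p = 0.00636). PIZI01000049v1 from 5955999 to 5956809 had 21.6 and 22.4 fold in muscle, against 4.41 and 5.28 in PBMC (log2 difference 2.21, SE 0.16, limma adjusted p = 0.00577). This NMI was 811 bp wide in muscle, and the PBMC set covered 232 bp of it. Neither had a peak in any library of the other tissues, so the list of PBMC alone, with weak and narrow peaks, set them apart from NMIs of muscle only.

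On the PBMC side, PIZI01000039v1 from 7698306 to 7698878 had 4.41 and 5.24 fold in muscle, against 27.7 and 24.3 in PBMC, and 4.25 in brain replicate 1 (log2 difference -2.39, SE 0.16, limma adjusted p = 0.00577). PIZI01000151v1 from 370722 to 371236 had 5.22 and 4.80 fold in muscle, against 28.9 and 22.4 in PBMC (log2 difference -2.31, SE 0.14, limma adjusted p = 0.00577). In both, the muscle set covered the smaller part, 234 of 573 bp and 287 of 515 bp. PIZI01000007v1 from 15588756 to 15589328 had 3.16 and 2.95 fold in muscle, against 13.5 and 15.9 in PBMC, with no peak in the 8 other libraries (log2 difference -2.28, SE 0.20, limma adjusted p = 0.00595). PIZI01000031v1 from 11474882 to 11475575 had 4.31 and 3.71 fold in muscle, against 20.4 and 16.5 in PBMC, and 4.27 in brain replicate 1 (log2 difference -2.19, SE 0.15, limma adjusted p = 0.00577). The muscle and PBMC values did not overlap at any of these 8 NMIs. Leaving out 1 of the 4 libraries could therefore hardly change the direction.

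The longest muscle/PBMC NMIs included several with unequal replicates. The longest, PIZI01000009v1 from 2080161 to 2081542 (1382 bp), had 16.7 and 6.48 fold enrichment in muscle, against 23.8 and 16.5 in PBMC, and 3.15 in brain replicate 1. PBMC covered all of it and muscle 781 bp. PIZI01001548v1 from 11213 to 12333 (1121 bp) had 34.4 and 7.63 fold in muscle, against 26.9 and 12.9 in PBMC, and it was called in both brain replicates, at 9.04 and 3.87 fold, with no base in common between them. In each of the 2, replicate 1 was the higher one in muscle and in PBMC, and the deposited muscle and PBMC values overlapped. After quantile normalization they no longer overlapped at PIZI01000009v1.

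PIZI01000055v1 from 4933305 to 4934386 (1082 bp) had 16.0 and 9.76 fold in muscle, against 2.59 and 3.29 in PBMC, with no peak in the other tissues (log2 difference 2.10, SE 0.30, limma adjusted p = 0.0125). The difference was 1.69 to 2.49 when any of the 4 libraries was left out. PIZI01000020v1 from 11180249 to 11181322 (1074 bp) had 15.9 and 13.5 fold in muscle, against 9.28 and 7.28 in PBMC (log2 difference 0.81, SE 0.17, limma adjusted p = 0.0327). At PIZI01000020v1 the difference was 0.68 to 0.96 when any of the 4 libraries was left out. PIZI01000043v1 from 6427502 to 6428574 (1073 bp) had 9.55 and 8.17 fold in muscle, against 15.2 and 10.6 in PBMC, and did not pass (limma adjusted p = 0.0833). PIZI01000129v1 from 304822 to 306115 (1294 bp) was second in width and had a brain peak of 4.23 fold in replicate 2. Of the 6 longest, 5 carried a brain peak.

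Muscle/PBMC NMIs lay among other NMIs and seldom next to one another. The nearest other merged NMI was 1314.5 bp away in the median, and within 1 kb at 673 (40.9%). The nearest NMI of brain was 2288 bp away in the median, and within 1 kb at 436 (26.5%), against 33.6% for NMIs of brain and muscle only without counting themselves, 39.1% for those of brain and PBMC only and 37.5% for those of brain, muscle and PBMC only. NMIs present in all 6 tissues were farther away, at a median of 8195 bp. Another muscle/PBMC NMI lay within 1 kb at 72 (4.37%) and within 10 kb at 259 (15.7%), with a median distance of 104012 bp. Distances are counted within scaffolds, and the more numerous classes have nearer members of their own class for that reason.

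They were spread over 274 of the 5623 scaffolds with a merged NMI, and 151 scaffolds had 1 only. On the 77 scaffolds with 300 or more merged NMIs, their share was 0.953% in the median, with quartiles of 0.786% and 1.17% and extremes of 0.24% and 2.65%. PIZI01000098v1 had the highest share of these, 9 of 340 (2.65%), and PIZI01000034v1 followed with 46 of 1779 (2.59%). The smaller scaffold PIZI01000129v1 stood apart, with 12 of 153 (7.84%).

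The densest window of 100 kb was on PIZI01000129v1, where 11 of the 22 merged NMIs between 244510 and 306635 were muscle/PBMC NMIs. None of the 22 was present in all 6 tissues. Of the other 11, 6 were present in muscle only, 2 in PBMC only, 1 in brain and muscle only and 2 in brain, muscle and PBMC only. The stretch had 25 and 20 peaks in the muscle libraries, 15 and 16 in the PBMC libraries, 6 and 5 in the brain libraries and 0 in each of the 6 sperm and embryo libraries. Of the 11 muscle/PBMC NMIs, 8 had no peak in any of the 8 other libraries. A peak in muscle was therefore usual over these 62126 bp, in PBMC somewhat less so, and in sperm and embryos none was called.

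Their levels varied along the stretch. The first, from 244510 to 244884, had 9.43 and 5.82 fold enrichment in muscle, against 10.01 and 7.56 in PBMC. The second, from 245071 to 245482, had 5.20 and 5.73 fold in muscle, against 5.12 and 4.46 in PBMC. A pair followed from 247520 to 247854 and from 248104 to 248576, with 10.1 and 6.85 fold in muscle, against 4.78 and 5.74 in PBMC, at the earlier and 8.01 and 8.60 fold in muscle, against 13.4 and 9.04 in PBMC, at the later. In deposited fold enrichment, muscle and PBMC values overlapped at the first only. Muscle was higher in both libraries at the second and at the earlier of the pair, and PBMC at the later. After the quantile normalization used for the test, the values overlapped at the second as well. None of the 4 passed the test.

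The middle of the stretch held 5 more. From 260520 to 260901 the values were 6.81 and 6.76 fold in muscle, against 5.89 and 5.34 in PBMC. From 267700 to 268061 they were 6.53 and 6.10 fold in muscle, against 4.10 and 3.18 in PBMC, just short of the threshold (limma adjusted p = 0.0505). From 268456 to 268909 they were 7.84 and 7.60 fold in muscle, against 4.28 and 3.69 in PBMC (log2 difference 0.89, SE 0.16, limma adjusted p = 0.0204). The difference at this NMI was 0.793 to 0.998 when any of the 4 libraries was left out. Muscle was thus the higher tissue in both libraries at 3 neighbours in a row.

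From 270953 to 271294 the values were 6.60 and 4.55 fold in muscle, against 6.11 and 9.83 in PBMC. The strongest difference of the stretch was from 279826 to 280762, a stretch of 937 bp, with 21.2 and 17.3 fold in muscle, against 5.81 and 5.29 in PBMC, and brain peaks of 4.97 and 2.75 fold that shared no base (log2 difference 1.80, SE 0.17, limma adjusted p = 0.00627). The difference was 1.65 to 2.00 when any of the 4 libraries was left out. The last 2, from 304822 to 306115 and from 306283 to 306635, were spanned by 1 peak in muscle replicate 1, at 10.98 fold, and by 1 peak in PBMC replicate 2, at 8.12 fold. In the other libraries they were separate peaks, with 8.79 and 9.67 fold in muscle replicate 2 and 5.30 and 6.84 fold in PBMC replicate 1. The number of muscle/PBMC NMIs in the stretch was 10 with peaks of -log10 q of 5 or more, 3 with 10 or more and 0 with equally long lists.

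**Figure D5:**
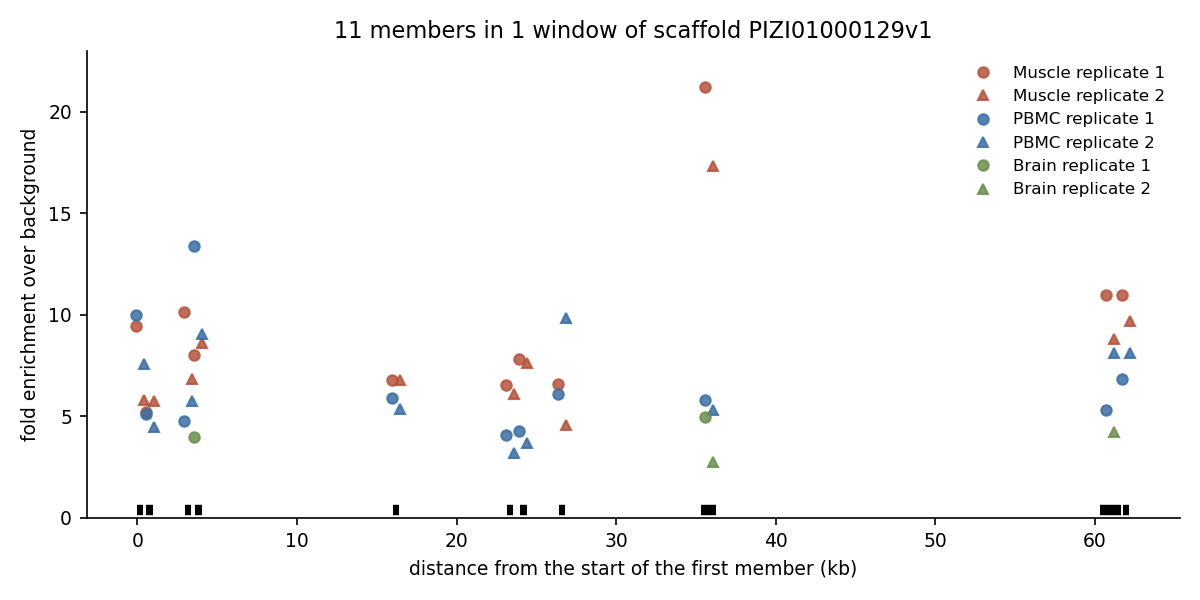
Fold enrichment over the local background (vertical axis) of the 11 muscle/PBMC NMIs of the densest window against the distance from the start of the first (horizontal axis, kb), by library; circles are replicate 1, triangles replicate 2, and black bars along the bottom mark the NMIs to scale. Muscle reaches 21.2 and 17.3 fold near 35 kb, where PBMC has 5.81 and 5.29, and at the other 10 NMIs the muscle and PBMC values lie between 3.18 and 13.4 fold.

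Other windows held fewer. There were 9 muscle/PBMC NMIs among 39 merged NMIs on PIZI01000025v1 from 7069477 to 7169299, 9 among 32 on PIZI01000027v1 from 11457618 to 11546675 and 9 among 20 on PIZI01000034v1 from 8241213 to 8338792. The window on PIZI01000025v1 also held 10 NMIs of all 6 tissues, whereas that on PIZI01000034v1 held none and had 0 to 1 peaks in each sperm and embryo library. Of the windows named here, the one with the shortest span was on PIZI01000027v1 from 13517931 to 13531402. There, 6 of 9 merged NMIs within 13472 bp were muscle/PBMC NMIs, and none of the 6 had a peak in another library. The muscle libraries had 9 and 9 peaks there and the PBMC libraries 7 and 9, with 1 in each brain library, 1 in each sperm library and 0 in each embryo library.

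At the limit of the rule, the smallest overlaps were well above 1 bp. Just inside it lay PIZI01000031v1 from 8826163 to 8826676, where muscle covered 70 bp, PIZI01000017v1 from 2522159 to 2522577, where PBMC covered 87 bp, and PIZI01000046v1 from 4968872 to 4969177, where muscle covered 112 bp. At PIZI01000017v1 the fold enrichment was 3.86 and 3.98 in muscle and 44.9 and 3.13 in PBMC, so that the highest value among all muscle/PBMC NMIs came from 1 PBMC library that its replicate did not share. Just outside lay PIZI01000044v1 from 8531401 to 8531811 with 52 bp of brain, PIZI01000120v1 from 522735 to 523447 with 75 bp of brain and PIZI01002138v1 from 11546 to 12102 with 95 bp of day 2. PIZI01000044v1 had 9.61 and 7.81 fold in muscle and 11.95 and 6.26 in PBMC, and 5.39 and 15.1 in brain.

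The members themselves depended on the peak threshold more than their number did. With peaks of -log10 q of 10 or more, 2014 NMIs met the rule, but 621 (37.7%) of the 1647 were among them. With lists cut to 89979 peaks each, 1426 met it, and 182 (11.1%) of the 1647 were among them. With the bases of either replicate counted as a tissue's set, 1482 met it, with 610 (37.0%) of the 1647. Leaving out brain replicate 1, so that brain replicate 2 alone made up the brain set, left 1068 (64.8%), and leaving out brain replicate 2 left 1310 (79.5%). These 2 counts restate the calls in 1 brain replicate given above. Dropping any of the 4 muscle and PBMC libraries kept 98.2% to 99.8% of the 1647 and added others, for totals of 1833 to 2177. That most were kept was fixed in advance. The remaining replicate then made up the tissue set, and it holds all bases that both replicates shared.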

How the data were processed

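Per the methods, reads were cleaned by trimmomatic and mapped by bowtie2 to the petMar3 assembly. After Picard MarkDuplicates, the authors ran macs2 on every library by itself; neither its options nor its use of inputs could be taken from the sources used here. Each deposited peak has a fold enrichment (ratio to the background around it), a -log10 p-value, a -log10 q-value, a summit and a whole-number score. The deposited p and score were not used. All q were 0.05 or less. The 5 input samples, of brain, muscle, sperm, day 1 and day 2, have no file here, and no PBMC input is listed. Gene annotation and sequence of petMar3 were not used here.

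Intervals were compared in Python 3.11.15 with NumPy 2.4.6, pandas 2.3.3 and SciPy 1.17.1, and tested on simulated data. The value of an NMI in a library was its highest fold enrichment, tested on the log2 scale with limma 3.58.1 in R 4.3.3. Named NMIs are the 6 longest, the 5 strongest by lowest percentile, the 4 largest differences in each direction past the threshold, those of the densest window of 100 kb, and the 3 nearest to the limit on each side; the remaining windows and scaffolds were picked with their values in view. The members, rules and comparisons were chosen with earlier results of these data known. Alternatives changed the q threshold, list length, replicate overlap, merging, normalization, scale and libraries used.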

Additional observations from a re-analysis of the deposited data

How the results depend on the processing

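The number of muscle/PBMC NMIs stayed within 1.5 times of 1647 under most alternatives. It was 627 when no peak of either replicate was allowed in the absent tissues and 2472 with a reciprocal overlap of 50% between replicates, which makes the brain and other sets smaller. Leaving out 1 library gave 1068 (without brain replicate 1) to 2177 (without muscle replicate 2). The share with a call in an absent tissue was 65.9% with peaks of -log10 q of 10 or more and 66.8% with equally long lists, against 61.9%. Of the 380 muscle/PBMC NMIs past the limma threshold, 129 remained in number with peaks of -log10 q of 10 or more, where 621 were tested, and 0 to 265 when 1 library was left out. Leaving out 1 library moved the median difference between -0.05 and 0.11 and the percentile difference between 0.85 and 6.74 points. Shared replicate numbers are not known to pair the samples. With the number as a replicate block, 320 passed (179 higher in muscle and 141 in PBMC). Over all 90336 merged NMIs tested with this block, 6446 were higher in muscle and 5786 in PBMC. With 2 pairs, the deviations of same-numbered libraries had a correlation of 0.01 over all NMIs tested and of 0.12 over the muscle/PBMC NMIs. The count in the densest window, an alternative chosen after seeing the data, was 8 to 12 apart from the 2 cases given for it. Low fold enrichment and lists of unequal length set what can be called, so a missing peak was read as not called, not as methylated.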
